A study of Homo sapiens with 6 samples.

Results

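The subject is the transcriptome of untreated L1236 cells, an established cell line of Hodgkin lymphoma, on the 2 untreated arrays of a series of 6. RNA was taken from untreated cells at 8 h and at 1 h. The other 4 arrays held cells given 100 nM leukotriene D4 (LTD4) or 0.1% methanol, its vehicle, at 8 h and at 1 h. The labels say that the treated cells were resuspended without serum and do not say how the untreated cells were handled. Each group was a single array, the cells of both untreated arrays share 1 line, and no label mentions a repeated culture, so no value has a replicate error and no test was made. Of 33297 rows of the deposited intensity table, 19479 carried exactly 1 gene symbol. These rows were ranked by the mean of log2(intensity + 16) over the 2 untreated arrays, and 1 row for each symbol, the one with the highest mean, gave 18604 genes.

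Hodgkin and Reed-Sternberg cells are the large malignant cells of Hodgkin lymphoma. They descend from germinal-centre B cells that have lost much of the B-cell programme, keep NF-kB and JAK-STAT signalling switched on, and draw T cells and other leukocytes around them with secreted chemokines. L1236 is also known for its 15-lipoxygenase, an enzyme that oxygenates arachidonic acid, and for receptors of the cysteinyl leukotrienes, the lipid mediators to which LTD4 belongs.

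Every level below is an intensity on the linear scale of the deposited table, with the 8 h array first. Levels were set against 45 antigenomic control probesets of each array, whose sequences match no human gene. A gene was called above background when it exceeded the 95th percentile of these controls on both untreated arrays, which lay at 1116 at 8 h and 1178 at 1 h. It was called at background when it did not exceed their median on either array, 40.7 on both. By these limits 2784 of 18604 genes, 15.0%, were above background, 942, or 5.06%, were at background, and the remaining 14878, or 80.0%, lay between. The upper limit is strict, so a gene between the limits cannot be called absent. Of 2904 intron control probesets, 295 (10.2%) also exceeded the upper limit on both arrays. A gene above it is therefore not thereby shown to be expressed. At the 95th percentile of the intron controls 355 genes remained. A milder line, chosen after seeing the data, was the 95th percentile of 336 olfactory receptor genes, receptors of the nasal epithelium, at 148 at 8 h and 156 at 1 h, and 61.2% of all genes exceeded it on both arrays. The median gene had 249.8 at 8 h and 294 at 1 h.

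**Figure D1:**
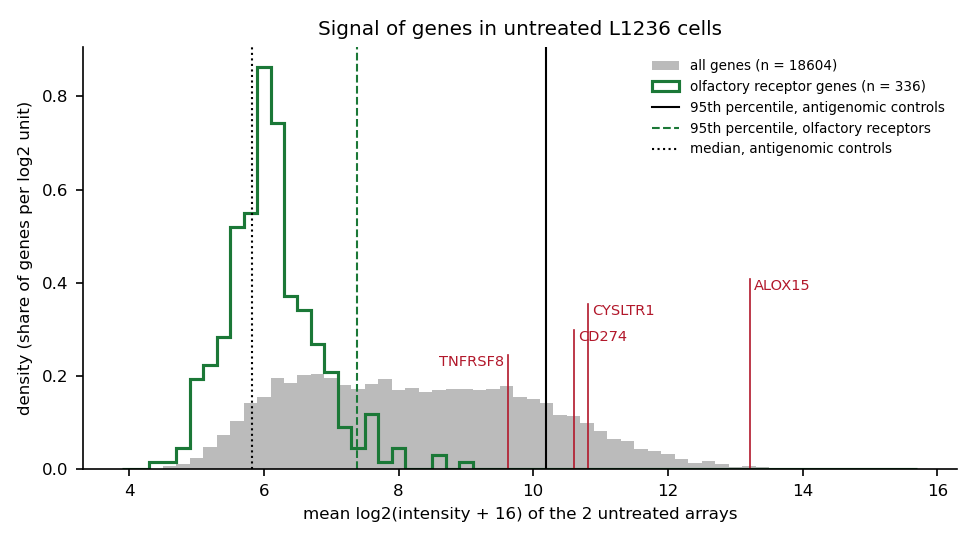
Histogram of the mean log2(intensity + 16) of 18604 genes (grey) and 336 olfactory receptor genes (green outline) on the 2 untreated arrays, as a share of genes per log2 unit. Vertical lines mark the control limits, and red lines the 4 marker genes: ALOX15, CYSLTR1 and CD274 lie to the right of the strict limit and TNFRSF8 between it and the olfactory receptor line.

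The 2 untreated arrays served as the only measure of spread. Over the 2784 genes above background the 8 h value was lower by a median of 0.14 on the log2 scale (8 h minus 1 h, -0.14), the SD of the differences was 0.22, and 99.9% of genes lay within 2-fold. Over all genes the median difference was -0.21, and 98.7% lay within 2-fold. The time and the array cannot be told apart in these differences. Of the 2784 genes, 2274 (81.7%) were above the same limit on all 6 arrays. In bulk RNA of a culture, fewer cells that express a gene and less of its RNA per cell cannot be told apart. Signals of different rows also depend on their probes: where 2 rows carried 1 symbol and the brighter was above background (133 symbols), the rows differed by a median of 0.64 log2 units. Ranks that lie closer than this are therefore not told apart here.

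The brightest rows belonged to the machinery of protein synthesis, protein folding, energy metabolism and the cytoskeleton. Of the top 100 rows, 34 were cytoplasmic ribosomal protein rows, 9 chaperones, 8 cytoskeletal genes, 6 translation factors, 5 glycolytic enzymes, 2 genes of the MHC class I pathway and 1 ATP synthase subunit, while 36 belonged to none of these lists. CALR counted both as a chaperone and in the MHC class I pathway. The first and the third row carried the symbol RNA28SN5, the 28S ribosomal RNA, with 28725 at 8 h and 27109.7 at 1 h in the brighter one. These rows lie on chromosomes 1 and 11, and the annotation gives the gene no chromosome, so whether they read that gene was not checked. Among the top 40 were GAPDH (19294 at 8 h, 19364 at 1 h) and ENO1 (18009 at 8 h, 16093 at 1 h), both enzymes of glycolysis, and HSPA8, the constitutive heat shock cognate chaperone (19649.7 at 8 h, 17127 at 1 h). RPL10 stood at 17064 at 8 h and 16064 at 1 h and RPS3 at 15473 at 8 h and 15188.5 at 1 h, and both are proteins of the cytoplasmic ribosome. This RPL10 row lies on chromosome 5, and the row on the gene's own chromosome X had 7092 at 8 h and 6479 at 1 h. Beta-actin (ACTB) had 14164 at 8 h and 14112 at 1 h, and the tubulin TUBB had 14590.4 at 8 h and 13231 at 1 h. The values of the 2 arrays lay close together for each of these genes.

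Several of the top 40 rows do not fall in those lists. RN7SK, a small nuclear RNA that restrains the transcription elongation factor P-TEFb, had 14538 at 8 h and 13659 at 1 h. RACK1, a scaffold protein of the small ribosomal subunit, had 13421 at 8 h and 13379.6 at 1 h. GSTM1, a glutathione transferase, had 10957 at 8 h and 12282 at 1 h. Others were IGHA1, PPIAL4, LOC440552, RPL13AP5, PDIA6 (a protein disulfide isomerase), NBPF9 and PTMA (prothymosin alpha). The LOC440552 row lies on the mitochondrial chromosome, and no chromosome was known for the named gene. ALOX15 stood at rank 67 and CCR7, a chemokine receptor of lymphoid homing, at rank 73, which placed both among mostly housekeeping rows.

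Genes for ribosomal proteins and translation factors are known to begin transcription at a C followed by a run of pyrimidines, the tract through which mTOR controls their translation. To show what these brightest genes share beyond their signal, 30 bases around the annotated start were read from RefSeq promoter sequences of build GRCh38.p14, from 15 bases before the start. A tract was a C at the start followed by at least 5 C or T, on the gene's strand. It was present in 15 of the 60 genes of the top 100 rows that had a promoter in the table (25%), against 819 of 27305 promoters in the table (3.0%). Within the top 100 it was present in 14 of 22 ribosomal protein and translation factor genes (63.6%), and in 1 of 38 other genes, RACK1. Over all 65 cytoplasmic ribosomal protein genes with a promoter, 43 had it (66.2%). EEF1A1, RPL12 and RPL14 had the tract but stood in the top 100 through rows on another chromosome than their gene. Their rows on the gene's own chromosome ranked 5451, 6042 and 525. RPS27, at rank 79, also had the tract, but its row lies on chromosome 1 far from the annotated start on that chromosome. The windows below show 5 genes with the tract in capitals and, for contrast, 2 glycolytic genes of the top 100 rows without one. They lie at chr6:73521018-73521047 (EEF1A1, minus strand), chr11:75399503-75399532 (RPS3, plus), chr19:49487593-49487622 (RPL13A, plus), chr9:19380222-19380251 (RPS6, minus), chr5:181243892-181243921 (RACK1, minus), chr12:6535249-6535278 (GAPDH, plus) and chr1:8878672-8878701 (ENO1, minus).
EEF1A1: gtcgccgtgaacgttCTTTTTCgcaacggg
RPS3: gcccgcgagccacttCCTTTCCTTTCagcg
RPL13A: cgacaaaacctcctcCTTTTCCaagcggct
RPS6: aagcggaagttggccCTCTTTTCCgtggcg
RACK1: ggggggcttttctctCTCTCTTTCactgca
GAPDH: agcgggtgcatccctgtccggatgctgcgc
ENO1: gcgggcggcgcggacagtatctgtgggtac

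The match is to letters only, and no translation was measured. Over wider sets, the base composition of the 300-base promoter followed the level call. The median GC content was 65% in genes above background, 63.3% between the limits and 45.7% at background. The median ratio of observed to expected CpG was 0.88 above, 0.76 between and 0.29 at background. TATAAA, searched on the gene's strand from 40 to 16 bases before the start, was present in 3.06% of genes above, 3.41% between and 7.58% at background, and in 2.54% of all promoters in the table. These are descriptions of the sequences and say nothing of the factors that bind them.

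Some of the brightest rows lay on a chromosome other than that of their gene, and this bears on what their levels measure. There were 174 such rows, 22 of them in the top 100, and 86 genes were represented by one. Only chromosomes were compared, so a row elsewhere on the gene's own chromosome, such as that of RPS27, was not counted. Rows whose gene had no known chromosome, such as RNA28SN5 and LOC440552, could not be checked. EEF1A1, translation elongation factor 1 alpha, held rank 4 through a row on chromosome 7 with 19791 at 8 h and 19529 at 1 h, whereas its row on chromosome 6, where the gene lies, had 662 at 8 h and 719 at 1 h. IGHA1, the constant region of immunoglobulin A, held rank 2 through a row on chromosome 5 with 24762 at 8 h and 21665.5 at 1 h, against 757 at 8 h and 1008 at 1 h in its row on chromosome 14. EIF5A, another translation factor, showed 7520.3 at 8 h and 8123 at 1 h on chromosome 10 and 261 at 8 h and 274 at 1 h on its own chromosome 17. For these genes the row on the gene's chromosome lay between the limits, so a high level of the named gene cannot be read from the brighter row. Over the 114 genes with both kinds of row, the row elsewhere was brighter by at least 1 log2 unit in 23, dimmer by at least 1 log2 unit in 8 and within 1 log2 unit in 83, with a median difference of 0.11 (elsewhere minus own). Of the members of the curated lists, EEF1A1, PPIA, EIF5A and APOA1 are among those that rest on such a row. Leaving these rows out kept 78 of the top 100 rows and 2764 genes above background. Also, 45 of the top 100 rows carried a cross-hybridization class other than the one the array's annotation gives to unique rows.

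**Figure D2:**
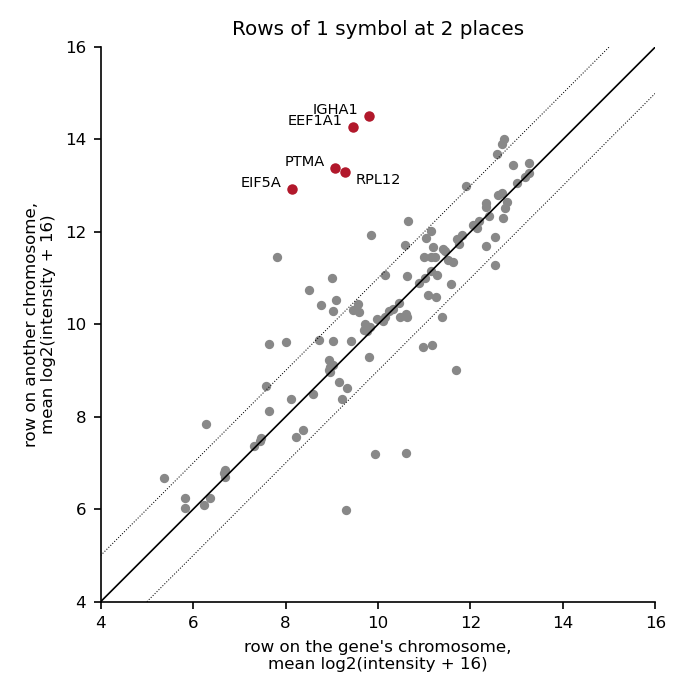
Each point is 1 of 114 gene symbols with a row on its own chromosome (x axis) and a row on another (y axis), as mean log2(intensity + 16) of the 2 untreated arrays; the solid line is equality and the dotted lines 1 log2 unit on either side. EEF1A1, EIF5A, IGHA1, PTMA and RPL12, in red, lie 4.01 to 4.80 log2 units above equality.

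Markers of Hodgkin cells were mostly above background. Of 18 markers, 13 were above (72.2%, against 15.0% of all genes), 5 lay between and none was at background. Their median mean log2 level was 10.64, against 8.16 for all genes. ALOX15, the 15-lipoxygenase, was the brightest at 9224 at 8 h and 9721 at 1 h. IRF4, a transcription factor of activated B cells and plasma cells, had 4573 at 8 h and 4633 at 1 h. BATF3, a bZIP factor that pairs with JUN proteins, had 4135 at 8 h and 4345 at 1 h. All of these stood well clear of the limit on both arrays.

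The surface and secreted markers followed. LGALS1 (galectin-1, a lectin that acts on T cells) had 3104 at 8 h and 3075 at 1 h, and FSCN1 (fascin, which bundles actin) had 3081 at 8 h and 2986 at 1 h. CD40, the receptor of T-cell help, had 1789 at 8 h and 1953 at 1 h. CYSLTR1, the type 1 receptor of cysteinyl leukotrienes, had 1499 at 8 h and 2116 at 1 h. The ligands of the inhibitory receptor PD-1 were both above background, CD274 (PD-L1) at 1291 at 8 h and 1848 at 1 h and PDCD1LG2 (PD-L2) at 1144.5 at 8 h and 1638 at 1 h. PDCD1LG2 lay only just over the 8 h limit. CCL17, a chemokine that attracts T cells through CCR4, had 1265 at 8 h and 1325 at 1 h. Among nuclear factors, MSC (a basic helix-loop-helix repressor found in activated B cells) had 2171 at 8 h and 1836 at 1 h, ID2 (an inhibitor of such factors) had 1274 at 8 h and 1739 at 1 h, and JUNB (an AP-1 subunit) had 1532 at 8 h and 1690.3 at 1 h.

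Of the 4 genes taken as marks of this line, ALOX15, CYSLTR1 and CD274 were above background and TNFRSF8 was not. TNFRSF8, which encodes CD30, the diagnostic surface receptor of Hodgkin cells, had 860.0 at 8 h and 702 at 1 h, below the strict limit on both arrays and above the olfactory receptor line on both. FUT4, the fucosyltransferase that makes the CD15 epitope, lay near it at 912 at 8 h and 901 at 1 h. CCL22, the other CCR4 ligand, had 288 at 8 h and 353 at 1 h, TRAF1, an adaptor of TNF receptors, had 223 at 8 h and 291 at 1 h, and the receptor NOTCH1 had 69.8 at 8 h and 94.4 at 1 h. NOTCH1 was the 1 marker of 18 that did not exceed the olfactory receptor line. At the strict limit 3 of the 4 marks were thus above background, and the CD30 gene was called neither above background nor at background. The levels of these 4 marks do not test the label of a Hodgkin line.

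The B-cell receptor complex was largely low. Of 18 measured members, 2 were above background (11.1%, against 15.0% of all genes), 14 lay between and 2 were at background, with a median mean log2 level of 7.25. FCER2 (CD23, the low-affinity IgE receptor) had 4632 at 8 h and 5815 at 1 h, and CD81, a tetraspanin, had 1604 at 8 h and 1340.5 at 1 h. CD37, another tetraspanin, had 982 at 8 h and 1148 at 1 h, and LYN, a kinase that starts receptor signalling, had 869 at 8 h and 972 at 1 h. The signalling chains lay far lower. CD79A, which carries the receptor's signal, had 244 at 8 h and 279 at 1 h, and its partner CD79B had 113 at 8 h and 176 at 1 h. MS4A1, which encodes CD20, had 36.7 at 8 h and 49.1 at 1 h. The complement receptor CR2 (28.9 at 8 h, 34.7 at 1 h) and the kinase BTK (22.4 at 8 h, 21.01 at 1 h) were at background. Other members were the signalling proteins BLK (153 at 8 h, 156 at 1 h), BLNK (110.2 at 8 h, 192 at 1 h), PLCG2 (119 at 8 h, 119 at 1 h) and SYK (62.04 at 8 h, 72.03 at 1 h), the surface proteins CD24 (143 at 8 h, 187 at 1 h) and CD72 (125 at 8 h, 139 at 1 h), and VPREB3 (118 at 8 h, 107 at 1 h) and FCRLA (49.8 at 8 h, 83.9 at 1 h). None of these last 8 exceeded 200 on either array. At the olfactory receptor line 6 of 18 were higher, against 61.2% of all genes.

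The transcription factors of the B lineage were split. Of 18, 8 were above background (44.4%, against 15.0% of all genes), with a median of 9.79. None was at background, against 5.06% of all genes. Besides IRF4 these were ETS1 (3246 at 8 h, 3753 at 1 h), IKZF1 (Ikaros, 2672 at 8 h, 2556 at 1 h), the E proteins TCF4 (2088 at 8 h, 2606 at 1 h) and TCF3 (1404 at 8 h, 1259.5 at 1 h), IKZF3 (Aiolos, 1269 at 8 h, 1371 at 1 h), MEF2C (1173 at 8 h, 1255 at 1 h) and PAX5. PAX5, the factor that commits cells to the B lineage, had 1555 at 8 h and 1261 at 1 h. FOXO1 (963 at 8 h, 1000.1 at 1 h), IRF8 (698 at 8 h, 855 at 1 h) and BCL11A (541 at 8 h, 578 at 1 h) lay in the upper part of the range between the limits. EBF1, which acts with PAX5 in early B cells, had 186 at 8 h and 188 at 1 h. The octamer factor POU2F2 had 135 at 8 h and 150.3 at 1 h and its coactivator POU2AF1 195 at 8 h and 233 at 1 h. BCL6, the repressor of germinal-centre cells, had 247 at 8 h and 227 at 1 h. The Ets factors SPIB (118 at 8 h, 126 at 1 h) and SPI1 (PU.1, 72.8 at 8 h, 91.3 at 1 h) and the repressor BACH2 (108 at 8 h, 105 at 1 h) were the lowest of the list. PAX5, TCF3 and the Ikaros genes were thus above background while CD79A and MS4A1, receptor genes known as their targets in normal B cells, were not.

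**Figure D3:**
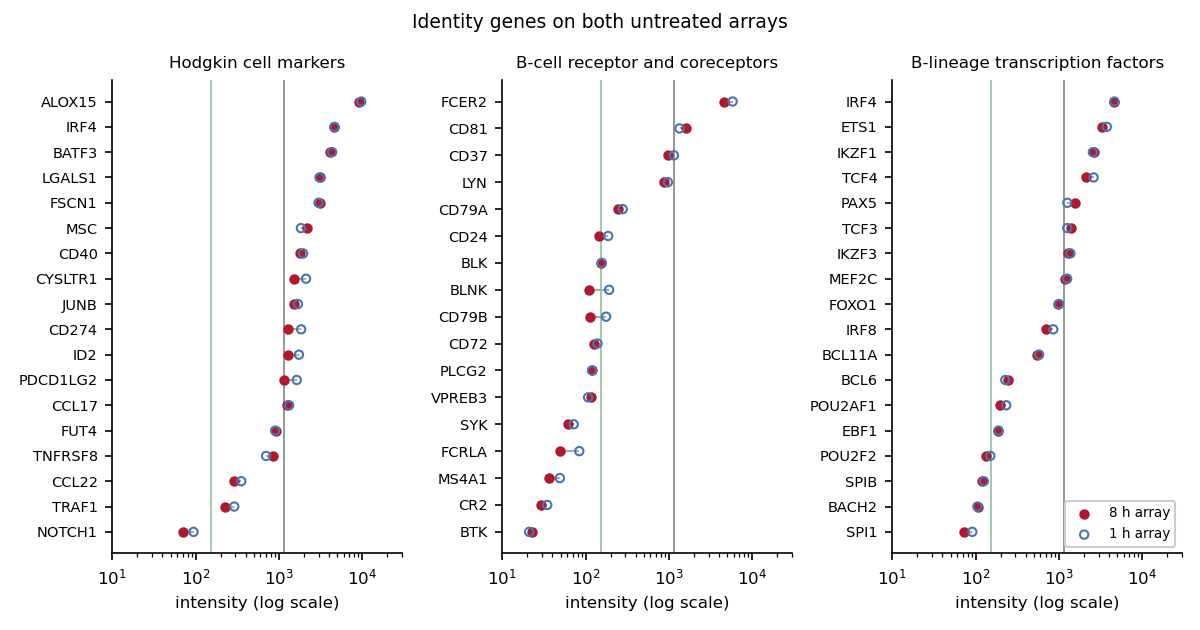
Intensity (log scale) of 18 Hodgkin cell markers, 17 B-cell receptor genes and 18 B-lineage transcription factors, with filled red points for the 8 h array and open blue points for the 1 h array. The dark line marks the strict limit (1116 at 8 h and 1178 at 1 h) and the green line the olfactory receptor line; 13, 2 and 8 genes lie to the right of the strict limit on both arrays.

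Of 9 genes of plasma cells 2 were above background (22.2%, on few members, against 15.0% of all genes): XBP1, the factor of the secretory stress response, had 2489 at 8 h and 3954 at 1 h, and MZB1, a chaperone of immunoglobulin assembly, had 1315 at 8 h and 1827 at 1 h. PRDM1 (Blimp-1) lay between the limits at 616 at 8 h and 799 at 1 h. JCHAIN, the joining chain of secreted antibody, was at background with 26.2 at 8 h and 25.9 at 1 h. TNFRSF17, the BCMA receptor, had 26.9 at 8 h and 53.1 at 1 h.

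Lists of markers of other cell types were read against the 15.0% of all genes above the strict limit and the 61.2% above the olfactory receptor line. On lists this short, a share near 15.0% says nothing about the list. Among 27 T-cell and NK-cell markers, 2 were above (7.41%), 23 between and 2 at background, and 29.6% exceeded the olfactory receptor line. GATA3, the factor of type 2 helper T cells, had 2581 at 8 h and 3224 at 1 h, and the T-box factor EOMES had 1778 at 8 h and 1901 at 1 h. The T-cell receptor chains were low: CD3D had 34.98 at 8 h and 87.2 at 1 h, CD3E 49.00 at 8 h and 126 at 1 h and CD3G 119 at 8 h and 146 at 1 h. Summed over the list, the signal was 7366 at 8 h and 8979 at 1 h. Neither the CD3 chains nor CD4, CD8A or CD8B was above background.

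Among 18 myeloid and granulocyte markers 1 was above (5.56%, with 33.3% over the olfactory receptor line), CEBPA, a granulocyte transcription factor, with 1687 at 8 h and 1673 at 1 h. TYROBP, an adaptor of activating receptors, lay between the limits at 613 at 8 h and 967 at 1 h, as did ELANE, neutrophil elastase, at 322 at 8 h and 415 at 1 h and FCN1, a ficolin of monocytes, at 249.9 at 8 h and 468 at 1 h. CD14 had 173 at 8 h and 233 at 1 h, LYZ (lysozyme) 36.2 at 8 h and 51.4 at 1 h and MPO (myeloperoxidase) 49.6 at 8 h and 76.3 at 1 h. Among 12 dendritic cell markers 1 was above (8.33%, and 33.3% over that line), the migration receptor CCR7 with 9098 at 8 h and 9228 at 1 h, while CD83, a maturation marker, had 329.5 at 8 h and 420.0 at 1 h, CLEC9A had 64.8 at 8 h and 62.6 at 1 h and CD1C had 43.8 at 8 h and 62.3 at 1 h. Among 10 mast cell and eosinophil markers 1 was above (10%, and 40% over that line), FCER1A, the alpha chain of the high-affinity IgE receptor, with 4965 at 8 h and 7360.1 at 1 h. TPSG1, a tryptase, lay between the limits at 536 at 8 h and 855 at 1 h. KIT (19.3 at 8 h, 17.3 at 1 h) and MS4A2, the beta chain of the same receptor (27.1 at 8 h, 17.02 at 1 h), were at background. Other members of these lists lay between the limits and cannot be called absent.

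Of 12 fibroblast and endothelial markers 1 was above (8.33%, and 33.3% over the olfactory receptor line), the adhesion molecule PECAM1 (CD31), with 4400.1 at 8 h and 5781 at 1 h. CDH5, the cadherin of endothelial junctions, lay between the limits at 543 at 8 h and 1024 at 1 h, and VWF had 69.2 at 8 h and 86.7 at 1 h. DCN (19.6 at 8 h, 31.9 at 1 h) and LUM (15.1 at 8 h, 14.9 at 1 h), proteoglycans of connective tissue, were at background. Of 12 neural markers 2 were above (16.7%, near the share of all genes, and 41.7% over the olfactory receptor line), SNAP25, a protein of vesicle fusion, with 1563 at 8 h and 2439 at 1 h, and MBP, the myelin basic protein gene, with 1623 at 8 h and 1967 at 1 h. None of 11 erythroid and platelet markers (45.5% over the olfactory receptor line) and none of 12 epithelial and hepatocyte markers (16.7%) was above background. KLF1, an erythroid factor, was the highest of the erythroid list at 315 at 8 h and 462 at 1 h, and beta-globin (HBB) had 32.3 at 8 h and 42.3 at 1 h. EPCAM, an epithelial adhesion molecule, was at background with 20.9 at 8 h and 32.6 at 1 h. Among 132 keratins and keratin-associated genes 2 were above (1.52%, against 15.0% of all genes), KRT7 with 1448 at 8 h and 1245 at 1 h and KRT3 with 2143 at 8 h and 2616 at 1 h. None of 336 olfactory receptors was above the strict limit, and 82 were at background (24.4%, against 5.06% of all genes).

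**Figure D4:**
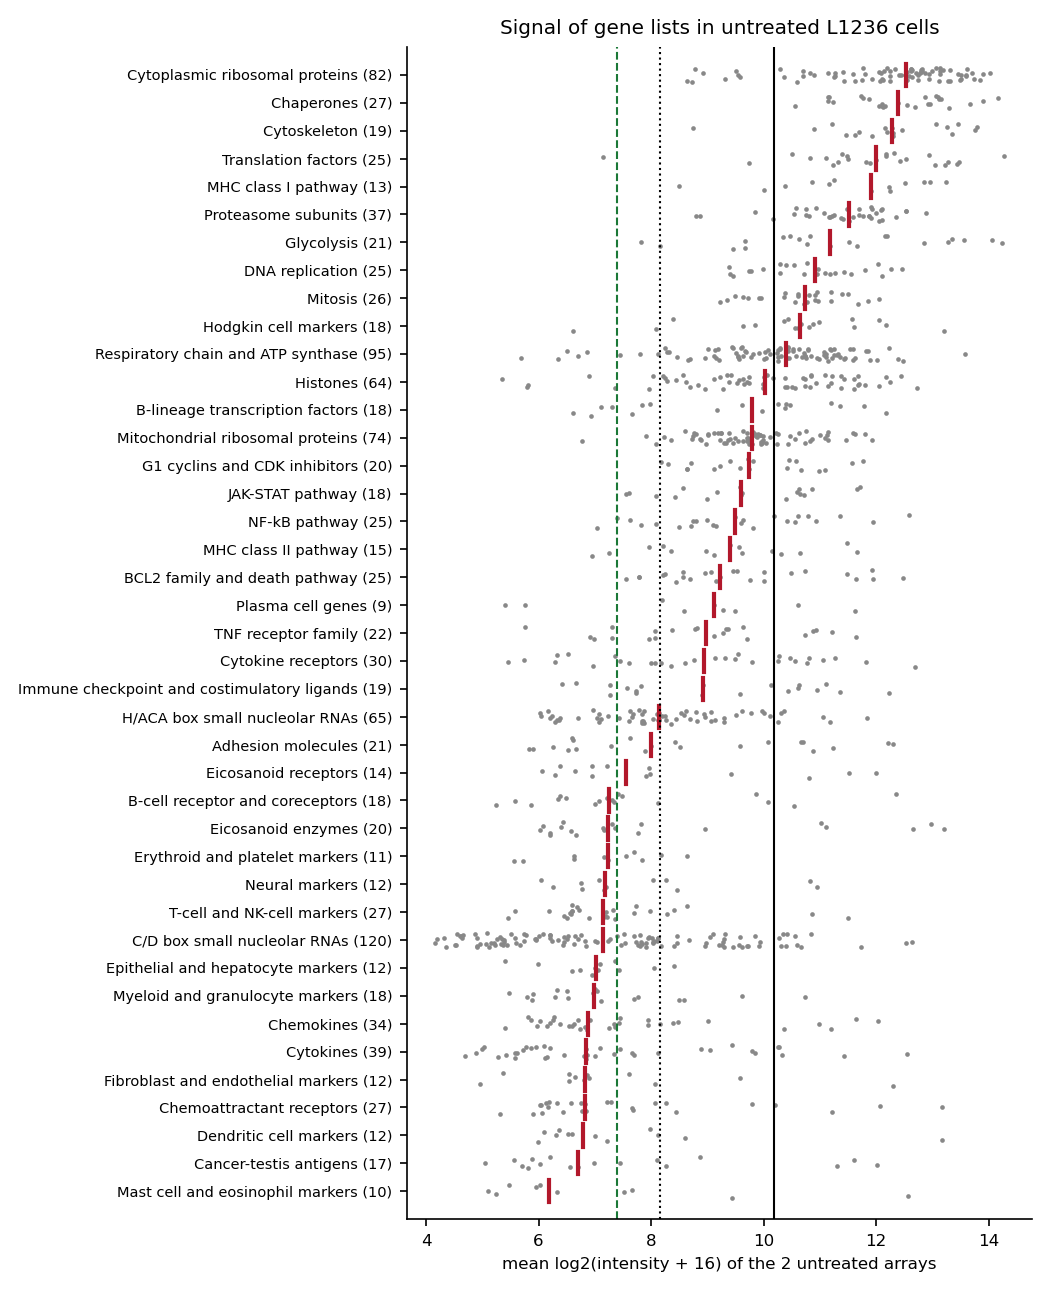
Each grey point is 1 gene of 41 lists (members measured in parentheses), placed by its mean log2(intensity + 16) on the 2 untreated arrays; red bars are list medians, sorted. The solid line is the strict limit, the green dashed line the olfactory receptor line and the dotted line the median of all genes (8.16); ribosomal proteins and chaperones lie at the top and the lists of markers of T, myeloid and other cell types have medians below that of all genes.

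In the eicosanoid pathway the 15-lipoxygenase was bright, while ALOX5, ALOX5AP and LTC4S lay between the limits. The 5-lipoxygenase makes leukotrienes from arachidonic acid with its activating protein, and LTC4 synthase then adds glutathione. Of 20 enzymes measured, 5 were above background (25%, against 15.0% of all genes), and the median was 7.24, below that of all genes. Besides ALOX15, MGST3, a membrane glutathione transferase that can also make leukotriene C4, had 8026 at 8 h and 8014 at 1 h. PTGES3, a cochaperone also known as cytosolic prostaglandin E synthase, had 6168 at 8 h and 6696 at 1 h. PLA2G4A, the phospholipase that frees arachidonic acid, had 2176 at 8 h and 1930.5 at 1 h. LTA4H, which makes leukotriene B4, had 1979 at 8 h and 2445 at 1 h. ALOX5, the 5-lipoxygenase, had 94.5 at 8 h and 164 at 1 h, its activating protein ALOX5AP 86.6 at 8 h and 72.1 at 1 h, and LTC4S, the LTC4 synthase, 110.5 at 8 h and 194 at 1 h. The cyclooxygenases PTGS1 (63.98 at 8 h, 77.6 at 1 h) and PTGS2 (56.7 at 8 h, 46.5 at 1 h) were low as well. ALOX5 and LTC4S exceeded the olfactory receptor line at 1 h alone, and ALOX5AP, PTGS1 and PTGS2 on neither array.

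Of 14 eicosanoid receptors, 3 were above background (21.4%, against 15.0% of all genes). The olfactory receptor line was exceeded by 50%, against 61.2% of all genes. CYSLTR2, the type 2 cysteinyl leukotriene receptor, had 3799 at 8 h and 4411 at 1 h. The 2 receptors were read by different probes, so their levels are not set against each other. PTGER4, a prostaglandin E2 receptor, had 2760.1 at 8 h and 3065 at 1 h. OXER1, a receptor of oxidized lipids, lay between the limits at 693 at 8 h and 647 at 1 h. PTGER2 (65.2 at 8 h, 59.4 at 1 h) and OXGR1 (56.5 at 8 h, 45.6 at 1 h) were the lowest of the list.

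A small set of secreted signals was bright. Of 34 chemokines 5 were above background (14.7%, near the 15.0% of all genes). CCL2, which attracts monocytes, had 3692 at 8 h and 4732 at 1 h, and CCL5, which attracts T cells and eosinophils, had 2862 at 8 h and 3533 at 1 h. CCL3, another attractant of leukocytes, had 1537 at 8 h and 2655 at 1 h. CXCL10, a chemokine induced by interferon, had 3632 at 8 h and 1498 at 1 h and was the only member of the list that differed by over 2-fold and was higher at 8 h. CXCL8 (55.1 at 8 h, 82.6 at 1 h) and CCL4 (49.2 at 8 h, 67.9 at 1 h) were below the olfactory receptor line, and CXCL9 was at background with 21.3 at 8 h and 31.6 at 1 h. Of 39 cytokines 3 were above (7.69%, against 15.0% of all genes), 26 between and 10 at background (25.6%, against 5.06% of all genes). Lymphotoxin alpha (LTA) had 5549 at 8 h and 6472 at 1 h, CSF1, the macrophage growth factor, 2716 at 8 h and 2733 at 1 h, and TGFB1 1242 at 8 h and 1289.7 at 1 h. TNF (919 at 8 h, 1636.5 at 1 h) and IL6 (872 at 8 h, 1659.7 at 1 h) exceeded the limit at 1 h alone. IL2 (19.04 at 8 h, 13.1 at 1 h), IL5 (8.32 at 8 h, 11.4 at 1 h), IL18 (5.95 at 8 h, 23.5 at 1 h) and IL33 (14.9 at 8 h, 18.8 at 1 h) were among those at background. The median mean log2 level was 6.88 for chemokines and 6.83 for cytokines, under the 8.16 of all genes, and 32.4% of chemokines and 33.3% of cytokines exceeded the olfactory receptor line, against 61.2% of all genes.

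Of 30 receptors for cytokines 8 were above background (26.7%, against 15.0% of all genes). IL1R2, the decoy receptor of interleukin-1, had 6221 at 8 h and 6931 at 1 h, and the signalling receptor IL1R1 had 1576 at 8 h and 1884 at 1 h. IL13RA1, a chain of the interleukin-13 receptor, had 3101 at 8 h and 4168 at 1 h, IL4R had 1623 at 8 h and 1925 at 1 h, and IL2RG, the common gamma chain, had 2326 at 8 h and 2562 at 1 h. IL5RA, the interleukin-5 receptor chain of eosinophils and some B cells, had 1812 at 8 h and 2469 at 1 h. IL10RA (1366 at 8 h, 1619.9 at 1 h) and IFNGR2 (1364 at 8 h, 1429.7 at 1 h) completed the list of those above. IL23R was at background with 24.1 at 8 h and 31.4 at 1 h, and IL7R (62.5 at 8 h, 61.8 at 1 h) lay under the olfactory receptor line. IL4R and IL13RA1 were above background while IL4 (48.4 at 8 h, 67.96 at 1 h) and IL13 (105 at 8 h, 119 at 1 h) were not.

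Of 27 chemoattractant receptors 3 were above (11.1%, against 15.0% of all genes), CCR7, CCR4 and CXCR4. The olfactory receptor line was exceeded by 33.3%, against 61.2% of all genes. CCR4, the receptor of CCL17 and CCL22, had 4213 at 8 h and 4327 at 1 h, and CXCR4, the receptor of CXCL12, had 2153 at 8 h and 2601 at 1 h. GPR15, a homing receptor of T cells, had 1755 at 8 h and 763 at 1 h and GPR183, which guides B cells by oxysterols, 644 at 8 h and 1188 at 1 h, so each passed the limit on 1 array alone. CXCR5, the follicular homing receptor of B cells, had 90.3 at 8 h and 94.00 at 1 h, and CCR1 was at background with 17.04 at 8 h and 31.9 at 1 h. A ligand and its receptor, CCL17 and CCR4, were thus both above background in this line. CCL22 (288 at 8 h, 353 at 1 h), the other ligand of CCR4, and CXCL12 (212 at 8 h, 251 at 1 h), the ligand of CXCR4, were not.

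**Figure D5:**
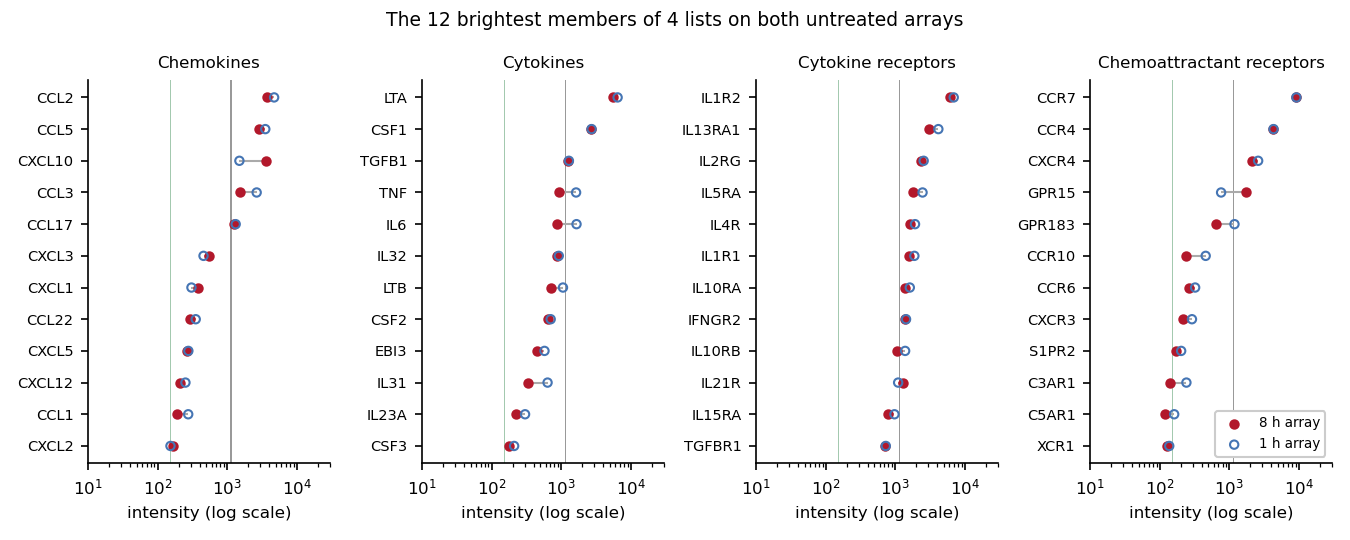
Intensity (log scale) of the 12 brightest members of the chemokine, cytokine, cytokine receptor and chemoattractant receptor lists, with filled red points for the 8 h array and open blue points for the 1 h array; the dark line is the strict limit and the green line the olfactory receptor line. On both arrays 5, 3, 8 and 3 members lie to the right of the strict limit, and CXCL10 and GPR15 show the widest gaps with the 8 h point to the right.

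Among NF-kB genes, subunits and their inhibitors were both above background. Of 25 NF-kB pathway genes 8 were above background (32%, against 15.0% of all genes) and none was at background (against 5.06% of all genes). NFKBIA, the inhibitor IkB alpha that NF-kB itself induces, had 5031 at 8 h and 7361 at 1 h, and BIRC3, an antiapoptotic ligase, had 3983 at 8 h and 3869.7 at 1 h. The subunits NFKB1 (2566 at 8 h, 2668 at 1 h), NFKB2 (1715 at 8 h, 1770.0 at 1 h) and REL (1367 at 8 h, 1763 at 1 h) were above, as were BIRC2 (1665 at 8 h, 2228 at 1 h) and the deubiquitinases CYLD (1407 at 8 h, 1586 at 1 h) and TNFAIP3 (A20, 1227 at 8 h, 1471 at 1 h). RELA (773 at 8 h, 746 at 1 h) and RELB (422 at 8 h, 433 at 1 h) lay between the limits. IKBKG, the scaffold of the IkB kinase, had 139.7 at 8 h and 165 at 1 h, and NFKBIZ, a nuclear IkB protein, had 96.5 at 8 h and 137 at 1 h. Of 22 TNF receptors 5 were above background (22.7%, against 15.0% of all genes): TNFRSF13C (the BAFF receptor, 3286 at 8 h, 3048 at 1 h), TNFRSF11A (RANK, 2464 at 8 h, 2276 at 1 h), TNFRSF9 (4-1BB, 1907 at 8 h, 1981 at 1 h), CD40 and FAS, the death receptor (1379 at 8 h, 2052 at 1 h). The lymphotoxin receptor LTBR had 103 at 8 h and 106 at 1 h. CD30 was thus not among the receptors of its family above the strict limit.

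Of 18 JAK-STAT genes measured 8 were above background (44.4%, against 15.0% of all genes) and none was at background (against 5.06% of all genes). The kinase PIM2, a STAT target, had 3148 at 8 h and 3523 at 1 h, and STAT6, the factor of interleukin-4 and interleukin-13 signalling, had 3138 at 8 h and 3263 at 1 h. JAK2 had 1616 at 8 h and 2084 at 1 h and the phosphatase PTPN1, which restrains it, 1464 at 8 h and 1888 at 1 h. TYK2 (1562 at 8 h, 1595 at 1 h), JAK1 (1502 at 8 h, 1535 at 1 h), PIAS1 (1418 at 8 h, 1734 at 1 h) and STAT5A (1409.7 at 8 h, 1248 at 1 h) were the others. SOCS1, an inhibitor often mutated in this disease, lay between the limits at 800.1 at 8 h and 698 at 1 h, and SOCS2 (144 at 8 h, 204 at 1 h) was the lowest. JAK2, CD274 and PDCD1LG2 neighbour each other on the short arm of chromosome 9, a region often gained in Hodgkin lymphoma, and all 3 were above background. Copy number was not measured here.

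Antigen presentation was read for both classes of MHC genes. Of 13 class I pathway genes measured 11 were above background (84.6%, against 15.0% of all genes), with a median of 11.90. HLA-B had 9756 at 8 h and 9475 at 1 h, its light chain B2M 6628 at 8 h and 8162 at 1 h and the peptide transporter TAP1 5964 at 8 h and 5647 at 1 h. ERAP1, a peptide trimmer (969 at 8 h, 1070.3 at 1 h), and NLRC5, the class I transactivator (335 at 8 h, 353 at 1 h), lay between the limits. Of 15 class II pathway genes 4 were above (26.7%, against 15.0% of all genes), with a median of 9.40. HLA-DPA1 had 2799 at 8 h and 3678 at 1 h, the invariant chain CD74 2798 at 8 h and 2878 at 1 h and HLA-DQA1 1536 at 8 h and 1635 at 1 h, and RFX5, a promoter factor of these genes, 1189 at 8 h and 1329 at 1 h. HLA-DRA had 605 at 8 h and 716 at 1 h. CIITA, the class II transactivator, had 119 at 8 h and 155 at 1 h and HLA-DOA 87.05 at 8 h and 133 at 1 h, the lowest of the list. HLA genes are close copies of each other, so their rows may share signal. Placed beside the TUBB and CSNK2B rows, the HLA-B row lies away from that gene's annotated start. It was also not classed as unique, so its level cannot be given to HLA-B alone.

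Ligands that regulate T cells were above background in 7 of 19 cases (36.8%, against 15.0% of all genes). CD86 had 4057 at 8 h and 5642 at 1 h and CD80 2171 at 8 h and 2193 at 1 h, both ligands of CD28 and CTLA4. CD47, the signal against phagocytosis, had 2431 at 8 h and 2790.2 at 1 h, CD58, the ligand of CD2, 1839 at 8 h and 2113 at 1 h, and LGALS9 (galectin-9) 1495 at 8 h and 1641 at 1 h. ICOSLG (69.3 at 8 h, 106 at 1 h) and TNFSF4 (OX40 ligand, 69.5 at 8 h, 68.8 at 1 h) were the lowest. Of 21 adhesion molecules 6 were above background (28.6%, against 15.0% of all genes). CD44 had 4730.3 at 8 h and 4713 at 1 h, ICAM1, the ligand of the integrin LFA-1, had 2151 at 8 h and 2675 at 1 h, and ITGA4 had 1851 at 8 h and 1861 at 1 h. The LFA-1 chains themselves, ITGAL (41.3 at 8 h, 39.9 at 1 h) and ITGB2 (69.5 at 8 h, 94.4 at 1 h), were low. Whether the same cells carried costimulatory ligands and ligands of PD-1 was not measured.

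Growth genes were bright. All 25 DNA replication genes exceeded the olfactory receptor line, against 61.2% of all genes. Of these 25, 18 exceeded the strict limit (72%, against 15.0% of all genes), with a median of 10.90. PRIM1 (the primase) had 5118 at 8 h and 6103 at 1 h, RRM2 (ribonucleotide reductase) 4821 at 8 h and 5008 at 1 h, MCM7 (a helicase subunit) 4417 at 8 h and 4369 at 1 h and PCNA (the polymerase clamp) 3659 at 8 h and 4756 at 1 h. TK1, thymidine kinase, was the lowest at 597 at 8 h and 716 at 1 h. Of 26 mitosis genes 19 were above (73.1%, against 15.0% of all genes). TOP2A, topoisomerase II alpha, had 3769.8 at 8 h and 4759 at 1 h. Cyclin B1 (CCNB1) had 3355 at 8 h and 4001 at 1 h and the kinase PLK1 2797 at 8 h and 2975 at 1 h. BIRC5, or survivin, was the lowest at 575 at 8 h and 594 at 1 h. Of 20 genes of the G1 phase 8 were above (40%, against 15.0% of all genes). CDK2 had 2945 at 8 h and 4071 at 1 h, CDK4 3300.3 at 8 h and 2760.2 at 1 h and CDK6 2211 at 8 h and 2113 at 1 h. Cyclin D2 (CCND2) was above at 1846 at 8 h and 2163 at 1 h, while cyclin D1 (CCND1, 369 at 8 h, 399 at 1 h) lay between the limits. The inhibitors CDKN2A (1574 at 8 h, 1637 at 1 h) and CDKN1C (1422 at 8 h, 1344 at 1 h) and the tumour suppressor RB1 (1138 at 8 h, 1586 at 1 h) were above, and CDKN1A, the inhibitor p21, had 254 at 8 h and 352 at 1 h. Both drivers and brakes of the cycle were therefore read above background.

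Of 25 genes of the BCL2 family and the death pathway 7 were above background (28%, against 15.0% of all genes). All 25 exceeded the olfactory receptor line, against 61.2% of all genes. The survival proteins BCL2L1 (BCL-XL, 4953 at 8 h, 6455 at 1 h), MCL1 (3608 at 8 h, 4265 at 1 h) and CFLAR (c-FLIP, 3333 at 8 h, 4499.7 at 1 h) were above. The death genes PMAIP1 (NOXA, 2524 at 8 h, 4023 at 1 h), FADD (2848 at 8 h, 2811 at 1 h) and FAS were above as well. BCL2A1 (184 at 8 h, 225 at 1 h), BBC3 (PUMA, 211 at 8 h, 196 at 1 h) and BIK (153 at 8 h, 194 at 1 h) were the lowest. Of 17 cancer-testis antigens measured, proteins otherwise limited to germ cells, 3 were above (17.6%, near the 15.0% of all genes): PRAME with 3701 at 8 h and 4554 at 1 h, CT45A1 with 2946 at 8 h and 3234 at 1 h and MAGEB2 with 2341 at 8 h and 2701 at 1 h. MAGEA4 had 13.3 at 8 h and 77.5 at 1 h, and PAGE2 (40.4 at 8 h, 23.5 at 1 h) and SYCP1 (16.5 at 8 h, 17.6 at 1 h) were at background. CT45A1 belongs to a family of near-identical copies, so its signal cannot be given to 1 gene.

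Metabolic and housekeeping lists set the upper end, read against the 15.0% of all genes above background. All 27 chaperones were above background, with DNAJB1 the lowest at 1458 at 8 h and 1522 at 1 h. Of 82 cytoplasmic ribosomal protein genes 74 were above (90.2%), with a median of 12.53. The lowest were the variants RPL3L (324 at 8 h, 455 at 1 h) and RPL39L (389 at 8 h, 423 at 1 h), which are known from muscle and testis. RPL22 (363 at 8 h, 496 at 1 h) and RPL13 (657 at 8 h, 329 at 1 h) were the next lowest, so the low end was not limited to such variants. RPL4 (621 at 8 h, 856 at 1 h) also lay between the limits. Of 25 translation factors 23 were above, and EEF1A2, the muscle and neuron form, had 104 at 8 h and 150.5 at 1 h. Of 19 cytoskeletal genes 18 were above, with moesin (MSN) the exception at 391 at 8 h and 437 at 1 h, beside its relative ezrin (EZR) at 2622 at 8 h and 2994 at 1 h. Of 37 proteasome subunits 33 were above (89.2%), and PSMA8, a subunit of the testis, had 376 at 8 h and 490.2 at 1 h. In these lists the lowest members included genes known from other tissues, and the cause of their low signal was not tested.

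Of 21 glycolysis genes 16 were above background (76.2%, against 15.0% of all genes). LDHB had 12331.5 at 8 h and 11952 at 1 h and LDHA 9071 at 8 h and 10882 at 1 h, the lactate dehydrogenases, and PKM, pyruvate kinase, 11109 at 8 h and 9801 at 1 h. The glucose transporters SLC2A3 (2027 at 8 h, 2613 at 1 h) and SLC2A1 (1856 at 8 h, 1632 at 1 h) were above. SLC16A3, a lactate exporter (214 at 8 h, 338 at 1 h), and PFKFB3 (187 at 8 h, 235 at 1 h) were the lowest. Of 95 respiratory chain and ATP synthase genes 50 were above (52.6%, against 15.0% of all genes). ATP5F1B, the beta subunit of ATP synthase, led with 12259 at 8 h and 12296 at 1 h. COX7B2, a testis form of an oxidase subunit, was at background with 31.3 at 8 h and 39.5 at 1 h. Of 74 mitochondrial ribosomal proteins 19 were above (25.7%, against 15.0% of all genes). MRPL51 led with 3599.6 at 8 h and 4186 at 1 h. The median mean log2 level was 10.40 for the respiratory chain list and 9.79 for the mitochondrial ribosome, beside 8.16 for all genes.

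Of 64 histone genes 28 were above background (43.8%, against 15.0% of all genes). H2BC14 (6115 at 8 h, 7479 at 1 h) and H2BC12 (5218 at 8 h, 5835 at 1 h) led. H2BC1, a testis histone, was at background with 23.7 at 8 h and 25.6 at 1 h. Histone genes are close copies, so rows may share signal. Small nucleolar RNAs, which guide the modification of ribosomal RNA, ranged widely. Of 120 C/D box RNAs 10 were above (8.33%, against 15.0% of all genes) and 32 at background (26.7%, against 5.06% of all genes). SNORD33 at 6704 at 8 h and 6008 at 1 h and SNORD3B-1 at 7405 at 8 h and 4678 at 1 h lay at the upper end. SNORD115-4 (0.03 at 8 h, 4.00 at 1 h) and SNORD115-10 (1.80 at 8 h, 2.71 at 1 h), of a cluster known for expression in brain, were among the lowest. Of 65 H/ACA box RNAs 5 were above (7.69%, against 15.0% of all genes) and none was at background, led by SNORA73A at 3939.8 at 8 h and 3324 at 1 h.

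Host RNAs of microRNAs were also on the array, and those of 2 loci known from B-cell lymphoma are given here, chosen after their values were seen. MIR155HG, the host gene of miR-155 (also called BIC), which Hodgkin cells are known to express, was above background with 2653 at 8 h and 2937 at 1 h. MIR17HG, the host of the miR-17-92 cluster, had 882 at 8 h and 1333 at 1 h, above the limit at 1 h alone. The array read the host RNA, not the mature microRNA. The mature sequences from RefSeq (GRCh38.p14, plus strand), printed to show which seeds these hosts carry, have bases 2 to 8, the seed, in capitals. The product of MIR155HG lies at chr21:25573983-25574006. Of the MIR17HG products, hsa-miR-17-5p (chr13:91350618-91350640) and hsa-miR-20a-5p (chr13:91351072-91351094) share a seed, and hsa-miR-19a-3p (chr13:91350939-91350961) and hsa-miR-19b-3p (chr13:91351245-91351267) share another.
hsa-miR-155-5p: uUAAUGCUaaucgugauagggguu
hsa-miR-17-5p: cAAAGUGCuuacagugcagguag
hsa-miR-20a-5p: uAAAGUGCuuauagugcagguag
hsa-miR-19a-3p: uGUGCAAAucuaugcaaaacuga
hsa-miR-19b-3p: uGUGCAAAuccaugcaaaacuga

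The few genes that differed by at least 2-fold between the untreated arrays were counted among the 3322 genes above the limit on at least 1 of them. At 8 h, 3 were higher (0.0903%) and 15 lower (0.452%), with 1 array on each side and no test. The 3 higher were CXCL10 (3632 at 8 h, 1498 at 1 h, a difference of 1.27), SNORA21, a small nucleolar RNA (1560.5 at 8 h, 651 at 1 h, 1.24), and GPR15 (1755 at 8 h, 763 at 1 h, 1.18), each as 8 h minus 1 h in log2 units. EGR1, an immediate early transcription factor, was lower at 8 h with 573 at 8 h and 2112 at 1 h, a difference of -1.85. JUN, an AP-1 subunit, had 1004 at 8 h and 2956 at 1 h (-1.54), and IER5, another early response gene, had 1462 at 8 h and 3480.2 at 1 h (-1.24). MTNR1A, a melatonin receptor, had 326 at 8 h and 1243 at 1 h (-1.88), NXNL2 486 at 8 h and 1192 at 1 h (-1.27), and hCG_1778643 487 at 8 h and 2425 at 1 h (-2.28). The early genes EGR1, JUN and IER5 thus lay among the few that separate the untreated arrays, and whether time, handling or the array set them apart was not tested. The 8 h array was dimmer in general, with a median over all rows of 154 against 188 at 1 h. IER5 lay past 2-fold only when the arrays were not centred on their medians, while EGR1 and JUN did so either way.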

How the data were processed

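RNA of 6 cultures was hybridised to 6 gene-level arrays, and the 2 untreated ones are described. The deposited table holds intensity values on a linear scale, made by the authors as 1 summary per row and array. Per the submitters' processing notes, RMA and Affymetrix Expression Console were used, with no version. PLIER, another summary method, stands in the table's own name. The sources used here do not give the method that made the values, the normalization between arrays or the genome build of the rows. Calls from the second deposited table were the same.

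Symbols of 19079 of 19479 rows were updated to GRCh38.p14 through the Entrez identifier. The row of highest mean log2(intensity + 16) stood for a symbol, and 1032 rows with several symbols and 12786 with none were left out. No further scaling was applied, no column was left unused, and 1 array per group allowed no test or error. The number of arrays limits the precision. The members of the lists, the lists themselves (34 curated, 9 by name pattern) and the limits were chosen with earlier results of these data known. The text names the 40 highest rows, every Hodgkin and B-lineage marker, up to 6 highest and 6 lowest members of other lists, and up to 6 array differences in each direction past 2-fold. Other named genes were chosen after their values were seen. Levels of sex-linked marker genes are not printed, and a few other genes are not reported here. The code of the calls was run on simulated data whose classes were built from the same limits. That checks the code only, not whether the limits are right. Alternatives covered the limits, arrays, normalization, row choice, symbols, offset and start rule. Python 3.11.15, numpy 2.4.6, pandas 2.3.3 and matplotlib 3.10.9 were used.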

Additional observations from a re-analysis of the deposited data

Results flagged for a closer look

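Rows without any gene symbol were not part of the ranking, and some carried signal. Of 8329 such main rows, 346 (4.15%) exceeded the 95th percentile of the antigenomic controls on both untreated arrays, against 15.0% of genes. What they measure is not analysed here.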

How the results depend on the processing

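The count of genes above background, 2784, became 355 at the 95th percentile of intron controls, and, with limits chosen after seeing the data, 5764 at the 75th percentile of the antigenomic controls and 11382 at the olfactory receptor line. Under the other 12 alternatives it stayed between 1979 and 3237. The 942 genes at background became 1686 on the 8 h array alone, 563 on all 6 arrays, 11 at the lower quartile of the controls and 3288 at the median of intron controls. Of 43 lists, 28 had a larger share above background than all genes, and 24 to 30 under the alternatives. The number of members above background moved by more than 1.5 times in 33 of 43 lists at the intron-control limit. It did so in 33 at the olfactory receptor line and in 18 at the 75th percentile of the antigenomic controls. Such moves follow largely from the change in the total count and do not show which lists passed the share of all genes. At the olfactory receptor line some lists did change sides. Against all genes, eicosanoid enzymes had a larger share at the strict limit (25%, against 15.0%) and a smaller one at the olfactory receptor line (40%, against 61.2%), and H/ACA box RNAs the other way (7.69% at the strict limit, 72.3% at that line). Between 94 and 100 of the top 100 rows were kept under other offsets, single arrays and quantile normalization, and 78 without rows on another chromosome. The 3 genes higher at 8 h became 5 with centred arrays and 6 with no filter, and the 15 lower became 4 with centred arrays, 6 with quantile normalization and 232 with no filter. The 15 start-site tracts in the top 100 became 23 when a tract could begin at any base within 5 of the start.

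No paired analysis was possible because each group held 1 array and no test was made. Dim genes are limited by signal over background. The call above background is limited too, since 295 of 2904 intron controls (10.2%) also exceeded the strict limit.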

Other observations

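By RefSeq gene class, 15.6% of 17103 protein-coding genes were above background on both untreated arrays, against 1.57% of 383 long noncoding RNA genes and 8.24% of 182 small nucleolar RNA genes. Small nucleolar RNAs had the highest share at background among these, 17.0%, against 4.72% of protein-coding genes. By chromosome of the gene, the share above background ranged from 9.65% of 373 genes on chromosome 22 to 22.0% of 1078 genes on chromosome 2.

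Small nucleolar RNAs lay on both sides of equality between the untreated arrays. Within 2-fold were 119 of 120 C/D box and 64 of 65 H/ACA box RNAs. The median difference (8 h minus 1 h, log2) was 0.04 over 120 C/D box and 0.05 over 65 H/ACA box RNAs, while that of all genes was -0.21. Summed intensities of the C/D box RNAs were 55797 at 8 h and 46348 at 1 h, and those of the 64 histone genes were 92891 at 8 h and 109543 at 1 h. The part of array, time or handling in this was not tested.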
